A study of Mus musculus with 2 samples.

Results

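Genes of the visual cycle and of retinoid transport were followed in cultured primary cells of the mouse retinal pigment epithelium (RPE), the pigmented sheet that underlies the photoreceptors, left untreated or given interferon gamma (IFNg), a cytokine made by activated T cells and NK cells. The set was chosen by name and holds 9 genes, Rpe65, Rlbp1, Lrat, Rdh5, Rdh10, Rdh11, Rgr, Stra6 and Ttr, of 18193 genes that had a probe set of their own on the array. A probe set is a group of short probes read together as 1 signal. All probe sets annotated to these genes were taken, 16 in all, of which 15 named 1 gene and 1 named Rdh5 together with Bloc1s1.

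The untreated group was 1 culture of RPE cells grown for 14 days in DMEM with 20% FBS. The IFNg group was 1 culture grown the same way and stimulated with IFNg at 100 U/ml for 24 h. Both cultures spent a night in serum-free medium before RNA was taken, and the labels give both as 95% cytokeratin-positive. Whether that night fell within the 24 h of IFNg is not stated. Strain, age and the number of animals behind each culture are not given in the labels. The series asks about the T-cell inhibitory ligand PD-L1 on IFNg-treated RPE, and the genes described here are part of what the same 2 arrays measured.

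The visual cycle is the route by which RPE turns the spent all-trans retinoid of bleached photopigment back into 11-cis-retinal for the photoreceptors. All-trans-retinol is esterified by LRAT, the ester is isomerised by RPE65 to 11-cis-retinol, and 11-cis-retinol dehydrogenases such as RDH5 oxidise it while CRALBP, the product of Rlbp1, holds the 11-cis forms. Retinol reaches RPE from the blood bound to retinol-binding protein and transthyretin (TTR) and enters through the receptor STRA6.

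With 1 array per group there was no replicate and no p-value, and precision is limited by the count of 2 arrays. Higher and lower describe these 2 arrays alone. Signals are in the arbitrary units of the deposited table, and levels of different genes are not compared, because probes differ in brightness. Signals under 20.4, the median of both arrays together, were set to that value before ratios were taken, and are called at the floor. A fold against an array at the floor is a lower bound, written as "at least". A gene is called measured where its signal reached the floor on 1 or both arrays.

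With IFNg, 3 of the 9 genes, Ttr, Rdh5 and Rlbp1, were lower by 2-fold or more, and 0 were called higher by as much. Rdh10 and Rdh11 lay within 2-fold. Lrat was at least 1.10-fold higher, a bound that does not place it within 2-fold. Rpe65, Rgr and Stra6 were at the floor on both arrays. Of all 12750 measured genes, 4.48% were likewise 2-fold lower or more and 8.82% at least 2-fold higher. The median log2 ratio of IFNg over untreated was -0.59 over the 6 members that were measured and -0.12 over all measured genes. Members that were measured only because 1 array was bright had to differ, so this median is a description of 6 genes. It was -0.09 with the floor at the 75th percentile of all signals, 86.6, where 4 members were measured.

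**Figure D1:**
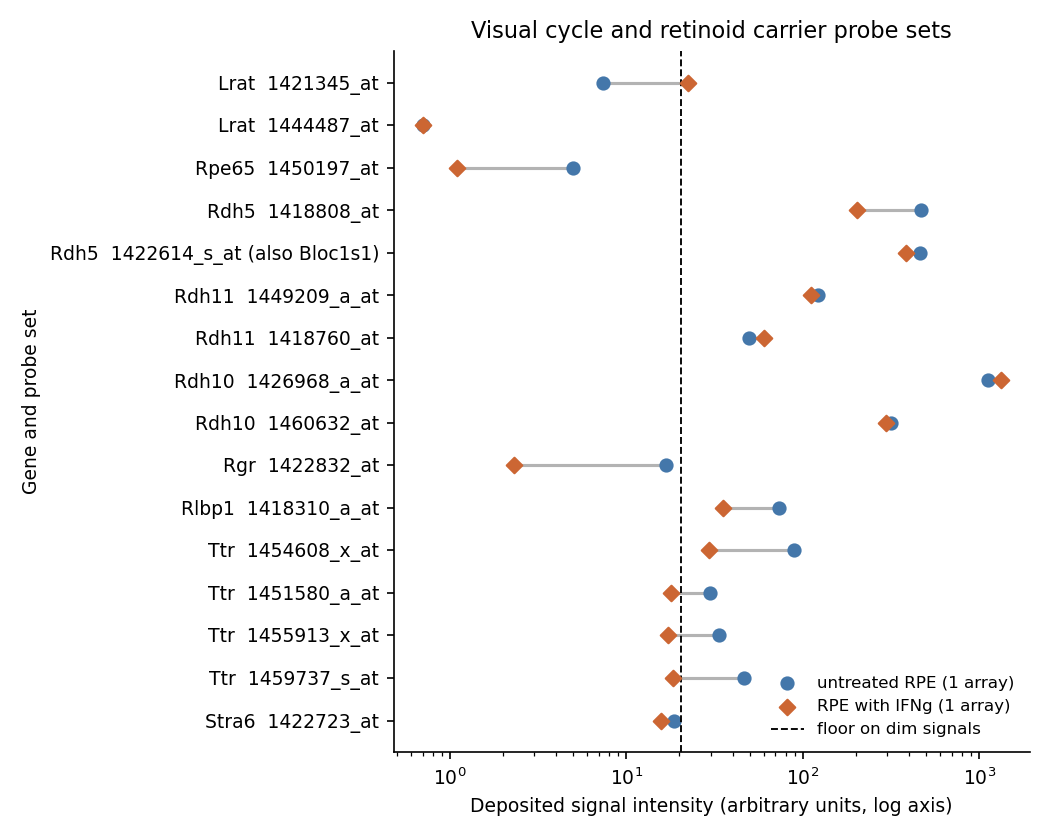
Deposited signal of each of the 16 probe sets on the untreated array (circles) and the IFNg array (diamonds), on a log axis in arbitrary units, with the floor at 20.4 as a dashed line. The single-gene Rdh5 probe set, Rlbp1 and the 4 Ttr probe sets lie to the left with IFNg, while the Rdh10 and Rdh11 pairs nearly coincide and Rpe65, Rgr and Stra6 lie under the floor.

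Promoter stretches are given for 3 members, because Rdh5 and Rlbp1 were lower on the IFNg array and Rpe65 is the isomerase whose signal was under the floor on both. Each runs from 250 bases before to 50 bases after the gene's start, 5′ to 3′ on the gene's strand, from RefSeq on GRCm38.p6. The Rdh5 stretch is chr10:128919248-128919547 on the minus strand, the Rlbp1 stretch chr7:79386978-79387277 on the minus strand, and the Rpe65 stretch chr3:159598931-159599230 on the plus strand. Capitals mark the letters TAATCC, the core bound by OTX2, and CATGTG, an E-box form bound by MITF, on either strand. OTX2 and MITF are transcription factors of RPE.
Rdh5: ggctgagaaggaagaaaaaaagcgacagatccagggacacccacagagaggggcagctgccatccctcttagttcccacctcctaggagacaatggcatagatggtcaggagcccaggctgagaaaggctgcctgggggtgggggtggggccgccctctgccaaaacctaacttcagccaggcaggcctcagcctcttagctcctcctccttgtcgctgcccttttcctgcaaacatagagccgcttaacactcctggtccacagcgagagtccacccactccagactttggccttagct
Rlbp1: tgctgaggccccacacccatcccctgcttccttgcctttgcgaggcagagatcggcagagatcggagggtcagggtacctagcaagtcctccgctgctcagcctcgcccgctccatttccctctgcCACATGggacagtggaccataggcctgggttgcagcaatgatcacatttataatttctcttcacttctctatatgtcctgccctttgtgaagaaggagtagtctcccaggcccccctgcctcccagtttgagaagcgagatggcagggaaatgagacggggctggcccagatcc
Rpe65: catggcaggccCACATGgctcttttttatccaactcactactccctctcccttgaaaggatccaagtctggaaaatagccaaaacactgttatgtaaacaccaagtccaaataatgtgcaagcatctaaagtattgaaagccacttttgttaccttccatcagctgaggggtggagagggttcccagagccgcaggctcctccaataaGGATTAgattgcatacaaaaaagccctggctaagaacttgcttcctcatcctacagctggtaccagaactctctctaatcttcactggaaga

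RefSeq entries were found for 7 of the 9 members, 11 stretches in all, with 4 start sites for Stra6 and 2 for Rdh11; Ttr and Rdh10 were without an entry. On either strand, TAATCC occurred in the stretches of Rpe65, 42 bases before the start, and Rgr, 167 bases before it, against 7.06% of all 32851 stretches of this length. CATGTG occurred in those of Rpe65, Rlbp1 and Rgr, 239, 124 and 5 bases before the start, against 14.2% of all. The E-box CACGTG occurred in 1 of the 2 Rdh11 stretches, against 7.15% of all. The 3 motifs did not overlap one another in these stretches. The letters say only what stands in these windows.

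Among the carriers, Ttr and Rlbp1 were lower with IFNg by their brightest probe sets, and Stra6 was at the floor on both arrays. Ttr encodes transthyretin, the plasma and eye carrier of thyroxine and, through retinol-binding protein, of retinol. Its brightest probe set, 1454608_x_at, had signals of 89.4 untreated and 29.4 with IFNg, a 3.04-fold lower value with a log2 ratio of -1.60. A further Ttr probe set, 1459737_s_at, had signals of 46.4 and 18.5 and was at least 2.27-fold lower. Probe set 1455913_x_at had 33.3 and 17.3, at least 1.63-fold lower, and 1451580_a_at had 29.9 and 17.9, at least 1.47-fold lower. All 4 lay lower on the IFNg array, 3 of them under the floor there, so that only the brightest gave a ratio and the others gave bounds. On the deposited signals with no floor, their log2 ratios ran from -1.60 to -0.74, with a mean of -1.15 ± 0.39 (SD, 4 probe sets of 1 transcript on the same 2 arrays, which are not replicates). The brightest Ttr probe set has an ID ending that marks possible cross-hybridisation. Without probe sets ending in _x_at or _s_at, Ttr was at least 1.47-fold lower, and with the floor at 86.6 it was at least 1.03-fold lower.

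Rlbp1 encodes the cellular retinaldehyde-binding protein CRALBP, which carries 11-cis-retinol and 11-cis-retinal inside RPE and, in the neural retina, inside Müller glia. Its 1 probe set, 1418310_a_at, had signals of 73.2 untreated and 35.1 with IFNg. Both signals were above the floor, and the value was 2.09-fold lower with IFNg (log2 ratio -1.06). Rlbp1 stood closest to the 2-fold line of the 3 genes past it. With 16 added to each signal instead of the floor it was 1.75-fold lower, and with the floor at 86.6 it had no ratio.

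Stra6, the cell-surface receptor that takes retinol from retinol-binding protein, had signals of 18.7 and 15.7 on its 1 probe set, both just under the floor. No ratio is given for it at this floor. With the floor at the 25th percentile of all signals, 5.80, it lay within 2-fold, at a log2 ratio of -0.25.

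Among the dehydrogenases, Rdh5 was lower with IFNg, while Rdh10 and Rdh11 lay within 2-fold. Rdh5 encodes the 11-cis-retinol dehydrogenase of RPE, which makes 11-cis-retinal in the last oxidation of the cycle. Its single-gene probe set, 1418808_at, had signals of 468.9 untreated and 202.7 with IFNg, a 2.31-fold lower value with a log2 ratio of -1.21. Over 11 alternative settings the Rdh5 log2 ratio ran from -1.29 to -1.11. Most of these settings cannot move it, because it rests on 1 bright probe set that no floor or choice of probe sets touches, and none of them brings in the probe set shared with Bloc1s1. Rdh5 is the 1 member of the 3 that was still called with the floor at 86.6.

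The second probe set that names Rdh5, 1422614_s_at, also names Bloc1s1, a subunit of a lysosome-related organelle complex, and gave a smaller difference. Its signals were 459.4 untreated and 382.7 with IFNg, a log2 ratio of -0.26. The RefSeq gene table of GRCm38.p6 places both genes side by side with overlapping spans, with 0 genes between them. No probe set names Bloc1s1 alone, so the share of this signal that came from Rdh5 cannot be told apart from that of Bloc1s1.

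Rdh10, which oxidises all-trans-retinol and can also act on 11-cis-retinol, had signals of 1122.1 and 1324.0 on its brighter probe set, 1426968_a_at (log2 ratio 0.24). Its other probe set, 1460632_at, had 317.1 and 297.4 (log2 ratio -0.09). The pair lay on opposite sides of 0 and both were well within 2-fold. Rdh11, a short-chain dehydrogenase of all-trans and 11-cis retinoids, had 121.1 and 110.7 on probe set 1449209_a_at (log2 ratio -0.13). Its other probe set, 1418760_at, had 49.7 and 60.0 (log2 ratio 0.27). As with Rdh10, the 2 probe sets of Rdh11 differed in sign, and over the alternative settings Rdh10 ran from -0.09 to 0.39 and Rdh11 from -0.21 to 0.27.

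Rgr encodes the RPE retinal G protein-coupled receptor, an opsin that binds all-trans-retinal and turns it to the 11-cis form in light. Its 1 probe set, 1422832_at, had signals of 16.8 untreated and 2.3 with IFNg, both under the floor, so no fold is given at this floor. With the floor at 5.80 it was at least 2.90-fold lower. This is the 1 member whose call appeared at the lower floor in the lower direction.

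For the esterification and isomerisation steps the arrays gave little signal. Rpe65, the isomerohydrolase that defines the RPE visual cycle, had signals of 5.0 untreated and 1.1 with IFNg, under the floor and also under 5.80 on both. Lrat, which makes the retinyl esters that RPE65 uses, had 7.4 untreated and 22.4 with IFNg on probe set 1421345_at and was at least 1.10-fold higher. Its other probe set, 1444487_at, read 0.7 on both arrays. Lrat thus reached the floor on 1 array and on 1 of its 2 probe sets, and the deposited signals of that probe set differ 3.03-fold where no floor or the floor of 5.80 is used. A signal under the floor on a single array does not show that a transcript was absent.

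Without replicate arrays, the one spread to be had is that between probe sets. For 4422 genes with 2 or more probe sets above the floor on both arrays, the SD of the log2 ratio within a gene was 0.44. The SD was 0.40 over the 2911 of these genes with a mean signal of 100 or more, the range of Rdh5, and 0.52 over the 1511 with a lower mean, the range of Ttr and Rlbp1. This spread leaves out differences between cultures, and a gene past 2-fold lies beyond it by choice, so it is no test of the 3 lower genes. Of genes whose brighter signal was under 100, 5.20% were at least 2-fold lower, and of brighter genes 3.94%. Of the 11 measured probe sets that name a member alone, 4 were at least 2-fold lower, 2 of them Ttr. The share over all 22296 measured probe sets that name 1 gene was 4.68%. At least 2-fold higher were 0, against 9.35%, and bounds short of 2-fold were not counted.

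**Figure D2:**
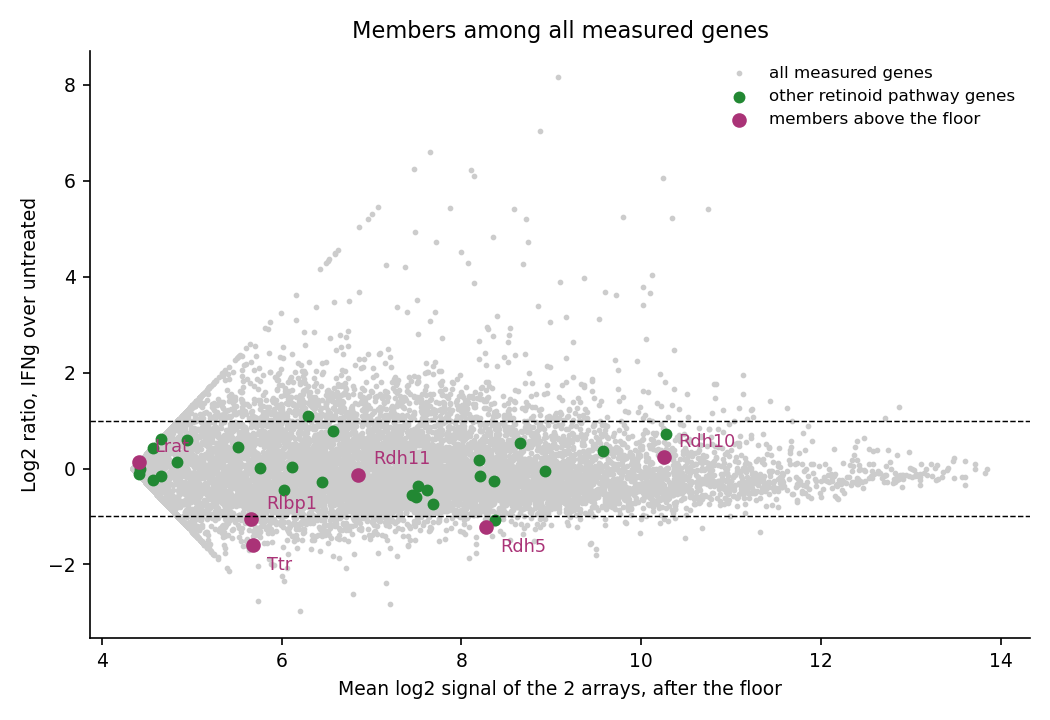
Log2 ratio of IFNg over untreated against the mean log2 signal of both arrays for all 12750 measured genes (grey), the other retinoid pathway genes (green) and the 6 measured members (purple, named), with dashed lines at 2-fold. Ttr, Rdh5 and Rlbp1 lie under the lower line, Rdh10 and Rdh11 between the lines, and Lrat at the dim edge, where the floor limits the ratio.

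The rest of the retinoid pathway was read from a list of 43 further genes, of which 38 had a probe set of their own and 28 were measured. Of these 28, 1 was at least 2-fold lower with IFNg, 1 at least 2-fold higher and 26 were not called. The median log2 ratio was -0.03. Among the 26, Rbp2, Rrh and Opn1mw had 1 array at the floor, so their ratios were bounds and could lie past 2-fold. The 5 listed genes without a probe set of their own were not analysed here.

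The lower gene was Aldh1a2, a retinal dehydrogenase that makes retinoic acid, the retinoid that acts through nuclear receptors. Its signals were 480.3 untreated and 229.4 with IFNg, 2.09-fold lower, and 1.95-fold lower after a loess curve was removed. Aldh1a1, which catalyses the same step, had 671.5 and 870.9 (log2 ratio 0.38). The higher gene was Cyp26a1, which breaks retinoic acid down and is itself a retinoic acid target. Cyp26a1 had signals of 53.4 and 114.9, 2.15-fold higher, with a pseudocount of 16 it was 1.89-fold higher, and with the floor at 86.6 at least 1.33-fold. Cyp26b1, of the same family, had 211.8 and 144.9 (log2 ratio -0.55), the other sign.

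Other dehydrogenases of the pathway lay within 2-fold in 7 of 7 measured genes, with a median log2 ratio of 0.04. Dhrs7 had signals of 335.7 and 483.6 (log2 ratio 0.53) and Rdh14 had 312.0 and 281.1 (-0.15). Counting the 3 measured members with them, Rdh5 was the 1 gene of the retinol and short-chain dehydrogenases past 2-fold. Binding proteins were measured in 3 of 6 genes, 0 of them called past 2-fold. Rbp2 had 4.7 and 27.6, a bound of at least 1.35-fold higher. Crabp2, which carries retinoic acid to its receptors, had 967.1 and 1590.6 (log2 ratio 0.72), and Rbp4, the plasma retinol carrier that travels with TTR, had 96.8 and 79.2 (-0.29).

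All 6 retinoid receptor genes were measured and lay within 2-fold, with a median log2 ratio of -0.30. Rarg had signals of 358.2 and 300.4 (log2 ratio -0.25) and Rxra 207.3 and 162.1 (-0.35). Rarb, named after its value was seen, was the receptor gene with a higher signal, 72.6 untreated and 124.3 with IFNg (log2 ratio 0.78). Of the genes for uptake, cleavage and esters, 4 of 6 were measured and 0 passed 2-fold. They included the scavenger receptor Scarb1, with 494.8 and 478.7 (-0.05), and the acyltransferase Dgat1, which can esterify retinol, with 266.7 and 159.0 (-0.75). Opsin genes were measured in 4 of 5, with Opn3 at 54.0 and 54.4 (0.01). Rrh, the peropsin gene of RPE, read 13.9 and 31.4 and was at least 1.54-fold higher.

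**Figure D3:**
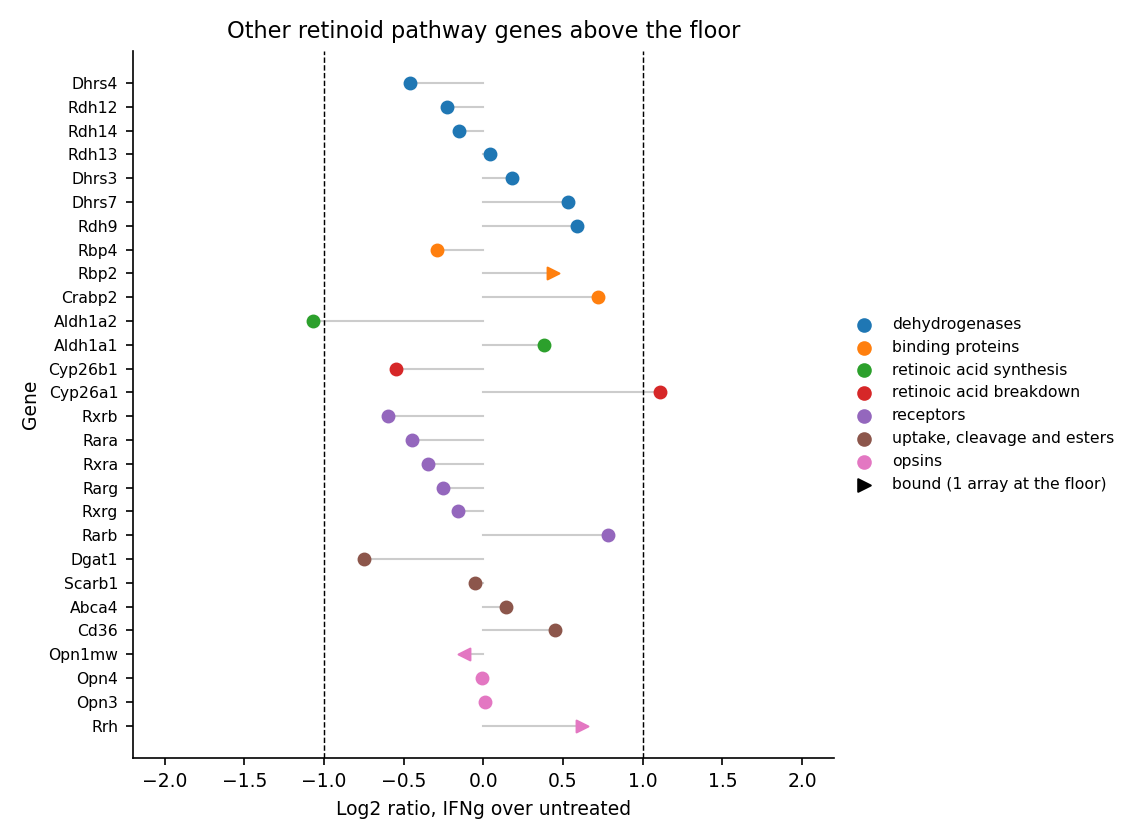
Log2 ratio of IFNg over untreated for the 28 measured retinoid pathway genes outside the 9 members, coloured by role, with triangles for bounds and dashed lines at 2-fold. Aldh1a2 at -1.07 and Cyp26a1 at 1.11 lie past the lines, and the other 26 plotted values lie between them. Those of Rbp2, Rrh and Opn1mw are bounds, so these genes could lie past the lines.

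The labelled cell type was checked on 18 RPE genes fixed as markers, the members Ttr, Rpe65 and Rlbp1 among them. On 1 or both arrays 15 were measured, including the transcription factor gene Otx2 (signals of 410.9 and 388.5), tyrosinase, Tyr (986.1 and 605.7), Serpinf1 (5552.3 and 3725.6) and the keratin gene Krt18 (1390.4 and 2445.9). Best1, Dct and Rpe65 were at the floor on both arrays, which does not show that these transcripts were absent. Of the 13 measured markers that are not members, 1 was at least 2-fold lower, Tyrp1 at 2.45-fold, and the median log2 ratio was -0.30. All 8 fibroblast markers were above the floor on both arrays, with a summed signal of 56357.1 untreated and 51954.8 with IFNg and a median log2 ratio of -0.17. In such whole cultures, fewer cells of a type and less RNA per cell cannot be told apart.

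Lists of marker genes for other cells that use members of the set were read the same way. Which cells of the cultures these signals came from, RPE included, was not tested. Müller glia also make CRALBP and RGR: of 7 glial markers with a probe set, 3 were measured and lay lower with IFNg by their brightest probe sets, namely glutamine synthetase, Glul (1041.5 and 580.3), the carbonic anhydrase Car14 (264.7 and 100.1, 2.64-fold lower) and Slc1a3 (36.1 and 8.0). Of the dimmer Slc1a3 probe sets, some went the other way, with signals of 1.0 and 27.4 and of 5.1 and 21.4. A dimmer Glul probe set had 768.3 and 332.0 (log2 ratio -1.21). Aqp4, Gfap, Kcnj10 and Abca8a were at the floor on both arrays. The summed signal, most of it from Glul, was 1367.4 untreated and 725.2 with IFNg. Ciliary epithelium and choroid plexus make TTR: of 8 markers of these and lens, 4 were measured. The water channel Aqp1 (3138.7 and 1642.4), Clic6 (231.5 and 87.5, 2.65-fold lower) and Folr1 (89.9 and 49.9) were lower, while the lens gene Crybb2 (6.0 and 34.3) was at least 1.68-fold higher. A dimmer Clic6 probe set had 99.2 and 54.5, within 2-fold (log2 ratio -0.86). Cryaa, Crygd, Kl and Bfsp1 were at the floor on both, and the summed signal, most of it from Aqp1, was 3493.7 and 1828.4. Of 4 liver genes, the other main site of TTR synthesis, 0 were measured.

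Photoreceptor markers were at the floor on both arrays in 8 of 11 genes, among them Sag, Crx, Rcvrn and Prph2. Rom1 was 2.95-fold lower (98.3 and 33.3), and the summed signal of the list was 197.3 and 112.0. That sum counts the signals of the 8 genes at the floor too, some of them higher with IFNg and some lower. Macrophage and leukocyte markers were measured in 6 of 9 genes. By their brightest probe sets 3 of them, Csf1r, Fcer1g and Laptm5, were at least 2-fold lower, against 4.48% of all measured genes. The other measured probe sets of Csf1r (log2 ratios -0.56 and -0.28) and Laptm5 (-0.19 and -0.55) were lower but within 2-fold. The summed signal of the list was 516.3 untreated and 257.1 with IFNg. The summed signals of the glial list, the ciliary, lens and choroid plexus list, the photoreceptor list and the leukocyte list were lower on the same array as Ttr, Rdh5 and Rlbp1, as were those of the fibroblast list and of the RPE markers outside the members (9377.2 untreated and 8092.1 with IFNg). Their part in those differences was not tested. As a check of the treatment label, 7 of 7 IFNg-responsive genes were at least 2-fold higher, among them Cxcl10 with signals of 144.5 and 5461.0.

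**Figure D4:**
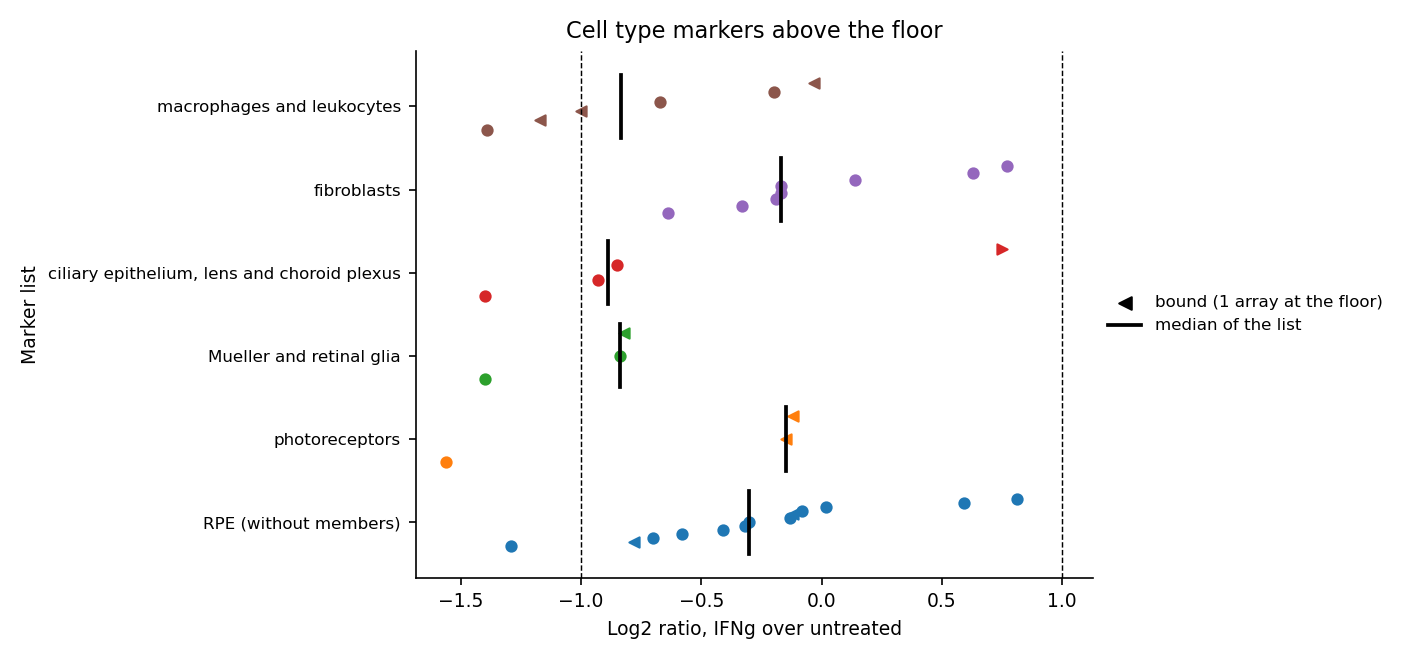
Log2 ratio of IFNg over untreated for each measured cell type marker, by list, with triangles for bounds, a black bar at the list's median and dashed lines at 2-fold. Glial and ciliary, lens and choroid plexus markers have medians of -0.84 and -0.89, against -0.30 for RPE markers outside the members and -0.17 for fibroblast markers.

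The calls for the 3 lower genes were set side by side under each way of processing. Rdh5, Rlbp1 and Ttr were all past 2-fold lower with no rescaling, with a common 75th percentile, with quantile normalization, with a loess curve removed and with probe sets averaged per gene. Rdh5 was the 1 gene left with the floor at 86.6 and without probe sets whose IDs end in _s_at, _x_at or _a_at, where Ttr and Rlbp1 have no probe set. With a pseudocount of 16, Rdh5 and Ttr were left, and without only the _s_at and _x_at probe sets, Rdh5 and Rlbp1. With the floor at 5.80, Rgr joined the 3, while the count of all genes called lower went from 571 to 2059. At 3-fold, Ttr was the 1 gene left, where 0.463% of all measured genes were that much lower.

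**Figure D5:**
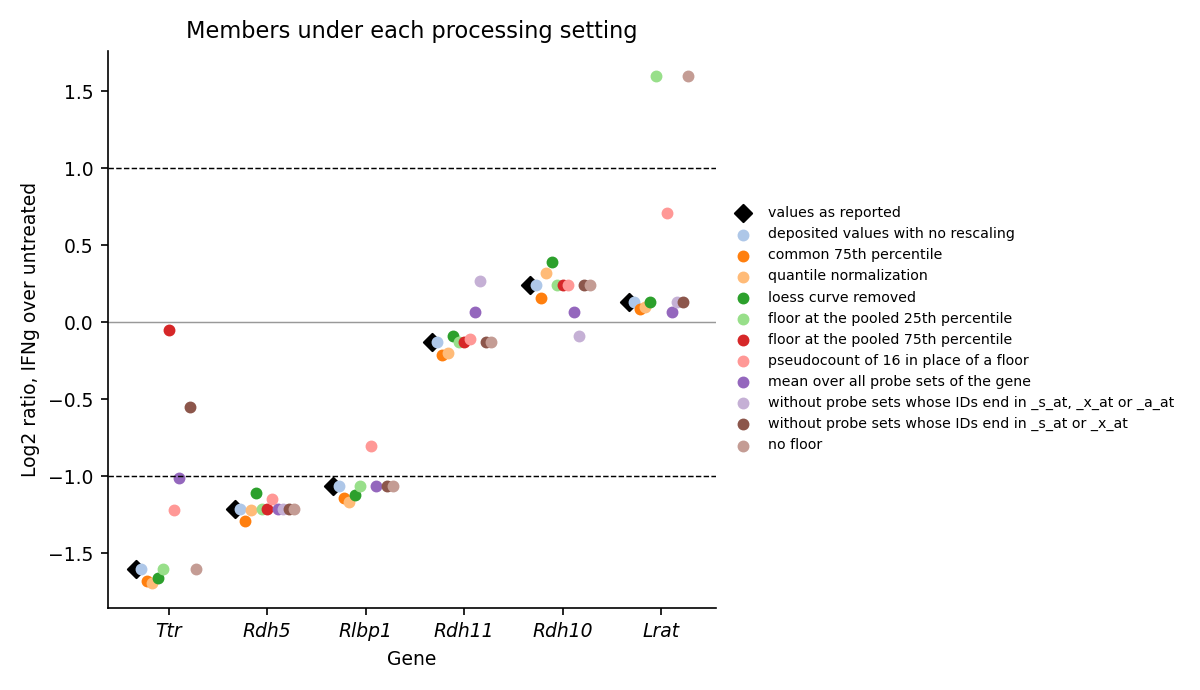
Log2 ratio of IFNg over untreated for the 6 measured members under the values as reported (black diamonds) and each alternative setting (coloured points), with dashed lines at 2-fold. Rdh5 stays between -1.29 and -1.11, Ttr spreads from -1.69 to a bound of -0.05, and Lrat rises to 1.60 where the floor is lowered or dropped.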

How the data were processed

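RNA of 2 mouse RPE cultures was amplified, labelled with biotin and hybridised, 1 array for each, per the labels' protocols. The authors deposited a linear signal intensity per probe set, and each array's mean after trimming 2% at each end was 100. How probes were summarised, background removed and detection called is not given in the sources used here. Groups followed the sample titles.

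Arrays were scaled to a common 2% trimmed mean, 64 control probe sets were left out, and signals below the median of both arrays were raised to that value before log2. Gene names came from the platform annotation, which can be old, where 34945 probe sets name 1 gene, 932 several and 9160 none. A gene took its brightest single-gene probe set by mean log2 signal. No test was possible on 1 array per group, so genes were counted at 2-fold. The text names all 9 members. Of other retinoid genes it names up to 3 per role past 2-fold, 2 per role by highest mean log2 signal, and those with a bound. Other markers were named to show the state of a list. The members and lists were chosen with earlier results of these data known. The signal classes split at 100 and the settings with no floor or without only _s_at and _x_at probe sets were chosen after seeing the data. The procedure was tested on simulated arrays. Effects there were planted only in genes brighter than Rlbp1, and were larger or smaller than those of the 3 lower genes. The simulated noise was below the spread between probe sets seen here, so the simulation does not cover these 3 calls. No coordinates are given for probe sets; promoter coordinates are RefSeq's. Python 3.11.15, numpy 2.4.6, pandas 2.3.3, statsmodels 0.14.6 and matplotlib 3.10.9 were used.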

Additional observations from a re-analysis of the deposited data

How the results depend on the processing

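The 3 members called lower became 1 with the floor at the 75th percentile of signals, 1 without probe sets ending in _s_at, _x_at or _a_at, and 1 at 3-fold, and 2 with the pseudocount of 16 and 2 without _s_at and _x_at probe sets. The 0 called higher became 1 (Lrat) with the floor at the 25th percentile and 1 with no floor. The median of the measured members was -0.09 at the higher floor and 0.02 without those probe sets. The Ttr log2 ratio was a bound of -0.05 (that value or lower) at the higher floor and of -0.55 without _s_at and _x_at probe sets, and -1.01 as the average of 1 ratio and 3 bounds. Lrat had 1.60 at the lower floor, 1.60 with no floor and 0.71 with a pseudocount of 16. The other retinoid genes, 1 lower and 1 higher, became 4 and 6 at the lower floor, 3 and 5 at 1.5-fold, 0 and 0 at 3-fold, and 2 and 3 with no floor; the lower count was 0 with the loess curve removed and 2 with the pseudocount, and the higher count was 0 at the higher floor. All genes, 571 lower and 1124 higher, became 2059 and 2258 at the lower floor, 163 and 574 at the higher floor, 357 and 591 with probe sets averaged, 2381 and 2288 at 1.5-fold, and 59 and 336 at 3-fold, with 1247 lower with no floor. The other 137 values over these settings moved by less than the technical SD of 0.44 log2 units or, for counts, by at most 1.5 times; the log2 ratio of Cyp26a1 was at least 0.41 at the higher floor. Floors, folds and fewer probe sets change these counts by construction; beyond that the cause was not tested.

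No paired analysis was possible because each group has 1 array. Leaving out a replicate was not possible either. How much background the dim signals of Ttr, Rlbp1, Rgr, Rpe65, Stra6 and Lrat hold is not known.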
